A study of Homo sapiens with 2 samples.

Results

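The kinesin superfamily was examined in U87, a human glioblastoma cell line in long use, treated for 24 h with LXR623 or with solvent. Its members were taken as every gene on the array whose symbol is KIF and digits, with at most 1 further letter or digit, or KIFC and a digit, which gave 43 of 22458 named genes. They were divided by textbook function into 14 mitotic kinesins, 15 transport kinesins and 14 others, which act in cilia, in the control of microtubule length or in ways less well known. The division was made with earlier results of these data known. LXR623 is a synthetic agonist of the liver X receptors (LXR), nuclear receptors that sense oxidised cholesterol. The control array held RNA from cells given 0.1% DMSO and the treated array RNA from cells given 20 µM LXR623, both in medium with reduced serum. The labels give no genetic change for either group, and RNA of each was hybridised to 1 array (n = 1 per group). Without replicates, none of the differences could be tested, and their precision is limited by having 1 array on each side. One protocol field names HCT116, a colon carcinoma line, as the cells in culture, whereas the title, source and cell line fields name U87.

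Kinesins are motors that hydrolyse ATP to move along microtubules or to take their ends apart. Mitotic kinesins build the spindle, move chromosomes and complete cytokinesis, and the mRNAs of most of them peak in G2 and mitosis. Transport kinesins carry vesicles, organelles and RNA in cells at every stage, and several of them are best known from axons.

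Values are log2 expression after RMA, a method that corrects background and equalises the intensity distributions of arrays. Each difference is the LXR623 array minus the DMSO array, so that a negative value means less signal with LXR623. A filter at the 25th percentile of mean level (log2 3.39) kept 16902 genes, and the median of their differences was 0. All 14 mitotic and all 15 transport kinesins passed, and so did 11 of the 14 others. KIF6, KIF25 and the pseudogene KIF28P lay below that level. As a measure of scatter, the central 95% of differences was taken in each of 5 equal groups of genes by level, and ran from -0.46 to 0.53 in the brightest group and from -0.55 to 0.65 in the dimmest. Of the kept genes, 339 (2.01%) were at least 1.5-fold lower and 402 (2.38%) at least 1.5-fold higher in the LXR623 array, or 54.3% higher among those past 1.5-fold. With each array centred on its own median this split turned, with 427 lower (2.53%), 319 higher (1.89%) and 42.8% higher.

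Mitotic kinesins were lower in the LXR623 array and transport kinesins differed little. Of the 14 mitotic members, 13 were lower, where 48.3% of all kept genes were (48.8% were higher), and their median difference was -0.46, a 1.38-fold lower level. Of the 15 transport members, 11 were lower and 4 higher, but their median was -0.04, and 12 lay within 0.2 of 0, as did 59.2% of all kept genes. The medians of the mitotic and transport kinesins thus differed by -0.42. The 14 others had a median of -0.02 over the 11 kept. At least 1.5-fold lower were 3 of the 40 kept kinesins (7.5%, against 2.01% of kept genes), KIF20A, KIF11 and KIF23, all of them mitotic. At least 1.5-fold higher was 1, the transport kinesin KIF1A (2.5%), a share close to the 2.38% of all kept genes. With centred arrays 5 kinesins were at least 1.5-fold lower, where 2.53% of kept genes were, the further ones being KIF18A and KIF20B. None was at least 1.5-fold higher then, where 1.89% of kept genes were.

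**Figure D1:**
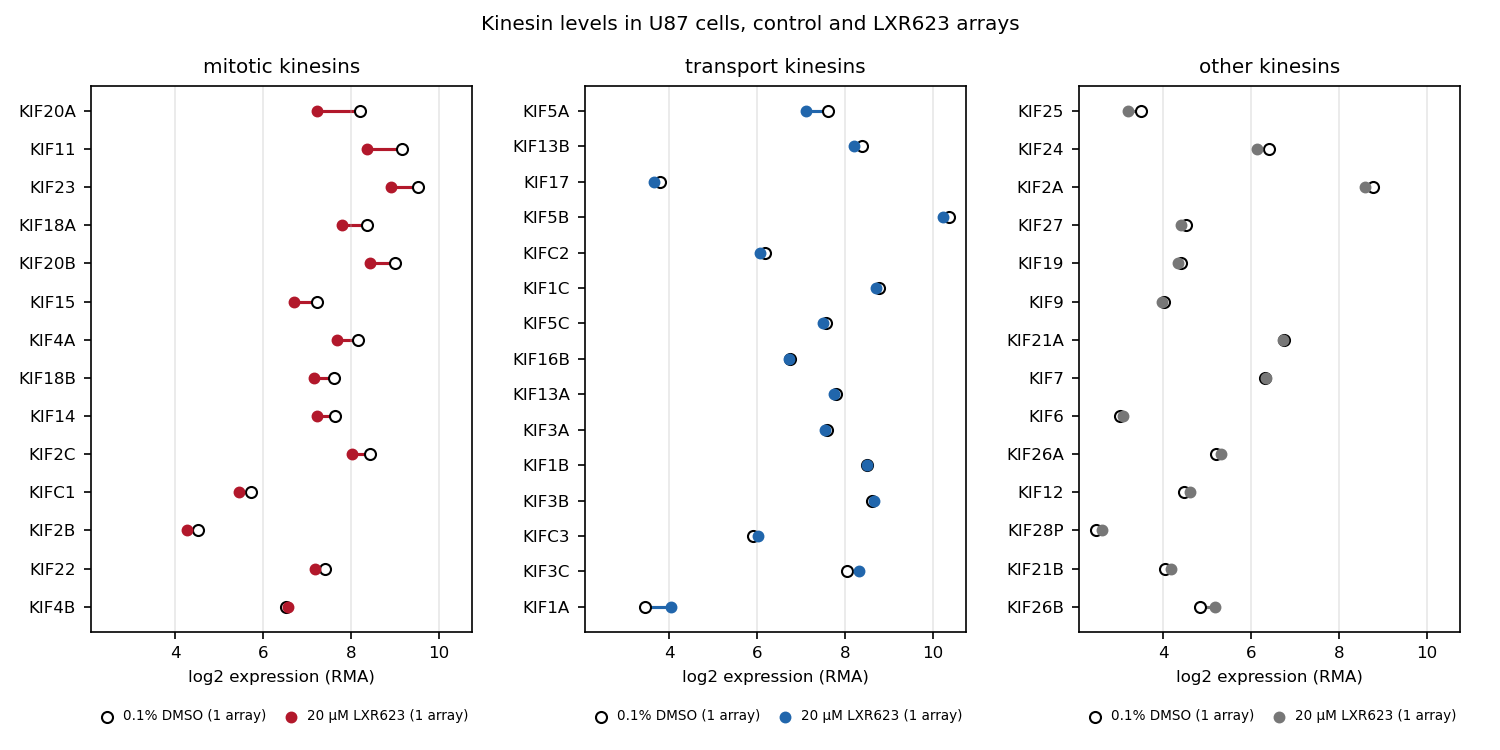
Log2 expression of all 43 kinesins on the control array (open circles) and the LXR623 array (filled circles), 1 array each, in 3 panels by class and ordered by difference. In the mitotic panel 13 of 14 filled circles lie left of the open ones, most clearly for KIF20A, while most pairs of the transport panel nearly coincide.

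The kinesins of the spindle midzone and of cytokinesis were all lower. KIF20A, which brings the chromosomal passenger complex to the midzone, read 8.21 in control and 7.23 with LXR623, a difference of -0.98 or 1.97-fold. It ranked at 34 from the lowest among the 16902 kept genes. KIF23, the motor of the centralspindlin complex that marks where the cleavage furrow forms, read 9.52 in control and 8.90 with LXR623, a difference of -0.62 (1.53-fold). KIF20B, a close relative of KIF20A that acts late in cytokinesis, read 8.99 and 8.43 and differed by -0.56. KIF14, which binds the midbody proteins PRC1 and citron kinase, read 7.64 and 7.21 and differed by -0.43. Of these 4 genes, KIF14 lay inside the central 95% of its level group and the other 3 lay below it. In all, 5 kinesins lay below the central 95% of their level group, where 2.51% of kept genes do, and all 5 were mitotic.

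Motors that shape the bipolar spindle differed by -0.26 to -0.79. KIF11, the tetramer that slides antiparallel microtubules apart and separates the poles, read 9.15 in control and 8.36 with LXR623, a difference of -0.79 (1.73-fold) and below the central 95% of its level group. KIF15, which can hold the poles apart when KIF11 is inhibited, read 7.22 and 6.70 and differed by -0.52, just inside it. KIFC1, a minus-end motor that gathers microtubules at the poles, read 5.72 and 5.46, a difference of -0.26. KIFC1 stood well inside the central range at its level.

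Motors that position chromosomes or trim microtubule ends gave a narrower range. KIF18A, which damps the movement of kinetochore microtubules so that chromosomes align, read 8.36 in control and 7.80 with LXR623 and differed by -0.57, below the central 95% of its level group. Its relative KIF18B, which shortens astral microtubules, read 7.61 and 7.16, a difference of -0.44. KIF4A, a chromokinesin that also sets the length of midzone microtubules, read 8.17 and 7.68 and differed by -0.48. The depolymerase KIF2C (MCAK), which frees wrongly attached kinetochores, read 8.42 and 8.01, a difference of -0.41. The chromokinesin KIF22 (Kid), which pushes chromosome arms away from the poles, read 7.40 and 7.17 and differed by -0.23, and the depolymerase KIF2B read 4.52 and 4.28 and differed by -0.24. KIF18B, KIF4A, KIF2C, KIF22 and KIF2B all lay inside the central 95% of their level groups.

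The exception among mitotic members was KIF4B, an intronless copy of KIF4A, at 6.53 in control and 6.56 with LXR623, a difference of 0.03. Under median centring its difference was -0.01. Because the copies are nearly identical, probes can be shared between KIF4A and KIF4B and both values are uncertain. Without the pair the mitotic median was -0.48.

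**Figure D2:**
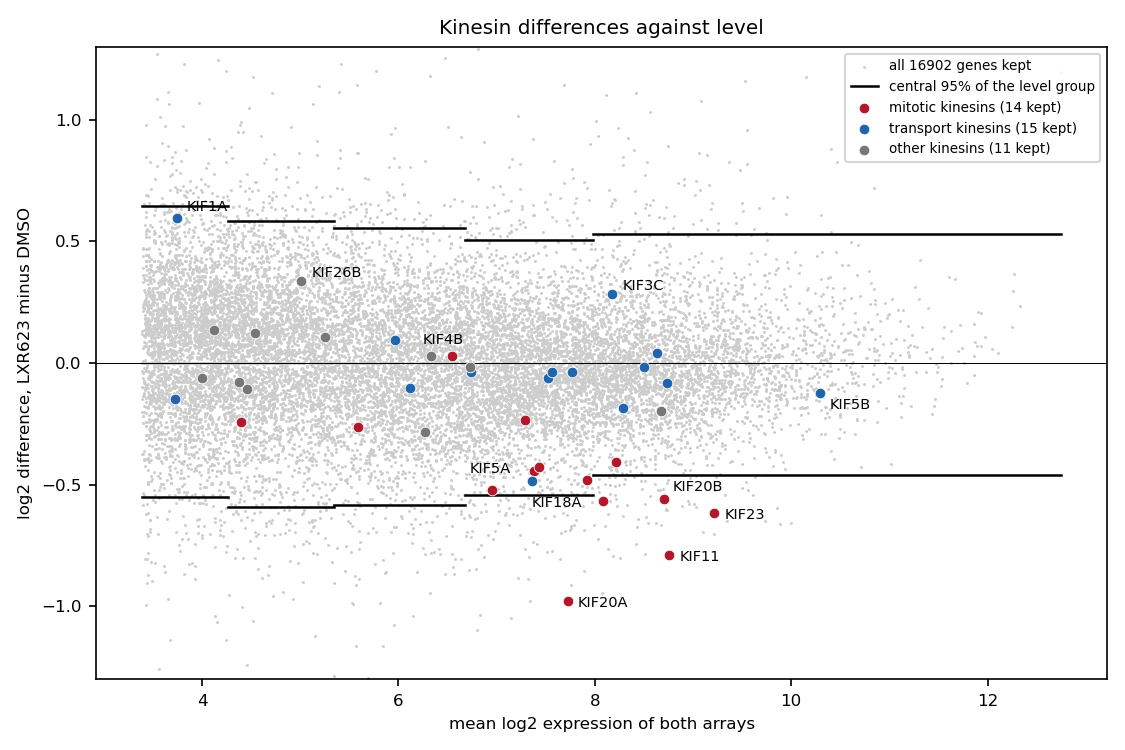
Log2 difference (LXR623 minus DMSO) against the mean log2 level of both arrays for 16902 kept genes (grey), with the 40 kept kinesins in colour by class and black lines at the limits of the central 95% in each of 5 level groups; a few genes beyond the vertical range are not drawn. The 5 points below the lower line are KIF20A, KIF11, KIF23, KIF18A and KIF20B, and no kinesin lies above the upper line.

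Among transport kinesins the conventional motors of kinesin-1, which carry cargo such as mitochondria and vesicles toward microtubule plus ends, all had lower values with LXR623, KIF5A the most. The broadly expressed KIF5B read 10.35 in control and 10.23 with LXR623, a difference of -0.12, and KIF5C, best known from neurons, read 7.56 and 7.49, a difference of -0.06. KIF5A, the other neuronal form, read 7.60 and 7.12 and differed by -0.49. It was the 1 transport kinesin below the mitotic median, though inside the central 95% of its level group. Without KIF5A the lowest transport difference was -0.19 and the transport median -0.04, and 13 of the 14 mitotic members lay below every remaining transport member. With KIF5A included, 6 did, and KIF5A was set aside only after its value was seen.

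Kinesin-2 motors, of which KIF3A and KIF3B pair to drive intraflagellar transport, differed by -0.15 to 0.28. KIF3A read 7.59 in control and 7.55 with LXR623, and KIF3B read 8.61 and 8.65. KIF3C, a further partner of KIF3A, read 8.04 and 8.32, a difference of 0.28, inside the central 95% of its level group. KIF17 read 3.79 and 3.65, near the level of the filter. None of these 4 reached 1.5-fold in either direction.

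Transport motors of kinesin-3 included the 1 kinesin past 1.5-fold upward. KIF1A, which carries synaptic vesicle precursors in axons, read 3.44 in control and 4.04 with LXR623, a difference of 0.60. Its control value lay close to the filter level, the value lay inside the central 95% of its level group, and median centring brought it to 0.56, under 1.5-fold. The endosome motor KIF16B read 6.75 and 6.72, and KIF13A, which acts on recycling endosomes, read 7.79 and 7.75. KIF1B, a carrier of mitochondria and vesicles, read 8.51 and 8.49, and KIF1C read 8.78 and 8.69. KIF13B read 8.38 and 8.20, a difference of -0.19. The minus-end motors KIFC2 and KIFC3 of kinesin-14 differed by -0.10 and 0.10.

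The other 14 kinesins ranged from -0.29 to 0.34. KIF2A, a microtubule depolymerase used both in neurons and at spindle poles, read 8.78 in control and 8.58 with LXR623, a difference of -0.20. KIF24, which restrains the outgrowth of cilia, read 6.41 and 6.13 and differed by -0.28. KIF26B, an atypical kinesin, read 4.84 and 5.18, a difference of 0.34, and its relative KIF26A read 5.20 and 5.31. KIF7, a regulator of Hedgehog signalling at the tip of the cilium, read 6.32 and 6.35, and KIF21A, which slows microtubule growth, read 6.74 and 6.72. KIF12, KIF19, KIF21B, KIF27 and KIF9 were dim, at 3.97 to 4.60, and differed by -0.11 to 0.13. KIF25 read 3.50 and 3.21, KIF6 3.01 and 3.09 and KIF28P 2.47 and 2.60. All 11 kept members lay inside the central 95% of their level groups.

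To set mitotic motors beside their nearest relatives, the classes were compared within subfamilies, groups of kinesins that share descent of the motor domain. In 6 subfamilies mitotic members sat beside members of another class, with KIF25 and KIF28P counted although they lay below the level filter. As classed here, the mitotic median was the lower one in each of the 6. In 3 of them every mitotic member lay below every relative. Within kinesin-12, KIF15 differed by -0.52 and KIF12 by 0.12. Within kinesin-8, KIF18A and KIF18B differed by -0.57 and -0.44 and KIF19 by -0.08. Within kinesin-3, KIF14 differed by -0.43, while its 7 relatives ranged from -0.19 to 0.60. The separation was incomplete in kinesin-13, where KIF2C was at -0.41 but KIF24 at -0.28 lay below KIF2B at -0.24, in kinesin-14, where KIF25 at -0.29 lay below KIFC1 at -0.26, and in kinesin-4, through KIF4B. KIF2A, at -0.20, was classed with the others, and counting it as mitotic would put the kinesin-13 mitotic median above KIF24. Kinesin-6, whose 3 members are all mitotic, ranged from -0.98 to -0.56.

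**Figure D3:**
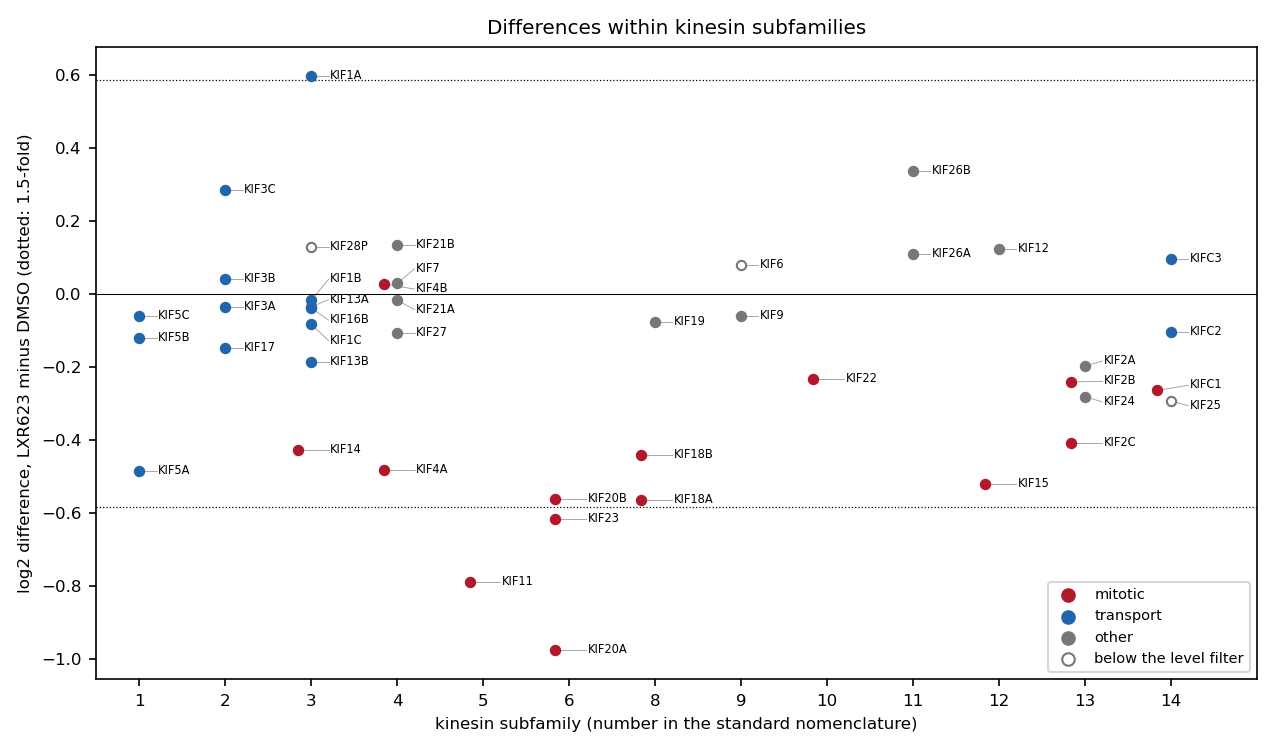
Log2 difference (LXR623 minus DMSO) of each kinesin by subfamily, coloured by class, with open symbols for members below the level filter and dotted lines at 1.5-fold. Red points of kinesin-3, kinesin-8 and kinesin-12 lie below all their relatives, and the 3 members of kinesin-6 lie between -0.98 and -0.56.

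The classes were measured at overlapping levels. In the 2 brightest of the 5 level groups, a comparison chosen after the data were seen, 11 mitotic and 11 transport kinesins remained. All 11 mitotic members were lower there, from -0.98 to -0.23, with a median of -0.52, and 9 of the 11 transport members were lower, with a median of -0.04. Over all 5 level groups 48.3% of kept genes were lower, and the share in these 2 groups alone is not given here.

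Genes whose products work with the mitotic kinesins were lower as well. Each of the 28 spindle and cytokinesis partners was lower with LXR623, at a median of -0.47, where 48.3% of all kept genes were lower, and 3 (10.7%, against 2.01%) were at least 1.5-fold lower. Of the 28, 9 lay below the central 95% of their level group and the other 19 inside it. The 3 past 1.5-fold were the kinetochore protein NDC80 at -0.74, the furrow scaffold ANLN at -0.66 and CENPE at -0.63. CENPE is itself a kinesin, which carries chromosomes to the spindle equator, and it read 7.90 in control and 7.27 with LXR623, but its symbol keeps it out of the 43. PRC1, the microtubule crosslinker that binds KIF4A, differed by -0.57, and TPX2, which binds KIF11 and KIF15, by -0.37. RACGAP1, the partner of KIF23 in centralspindlin, read 6.77 and 6.69 and differed by -0.09, beside -0.62 for KIF23.

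Markers of proliferation moved with these genes. All 18 were lower, against 48.3% of kept genes, with a median of -0.51 and a range of -0.80 to -0.25, and 9 lay below the central 95% of their level group and 9 inside it. At least 1.5-fold lower were 4 (22.2%, against 2.01% of kept genes), namely the cyclins CCNA2 at -0.80 and CCNB2 at -0.74, the replication helicase subunit MCM6 at -0.61 and MKI67, which encodes the Ki-67 antigen of cycling cells, at -0.60. TOP2A, the topoisomerase that untangles sister chromatids, differed by -0.54. The part of cell cycle distribution in the kinesin values was not tested, and in RNA from a whole culture fewer cells in mitosis and less kinesin RNA per mitotic cell cannot be told apart.

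Genes that work with the transport kinesins lay on both sides of 0, most adaptors above it. Of 19 kept adaptors and regulators, 15 were higher and 4 lower, where 48.8% of all kept genes were higher and 48.3% lower. Their median was 0.08, and none reached 1.5-fold. The light chain gene KLC2 differed by 0.30 and KLC1, another light chain of kinesin-1, by 0.03. KIFAP3, which joins the KIF3 heavy chains to cargo, differed by 0.10 and KIFBP, an inhibitor of several kinesins, by -0.05. The 4 largest differences of the list were BORCS6, a subunit of the complex that couples lysosomes to kinesins, at 0.50, the adaptor KIDINS220 at -0.42, KLC2 and KLC4 at 0.26. The 21 genes of cytoplasmic dynein and dynactin, the minus-end transport machinery, had a median of -0.06. Of these, 14 were lower (66.7%, against 48.3% of kept genes) and 7 higher. NDEL1, a dynein regulator, was highest at 0.57, above the central 95% of its level group, where 2.51% of kept genes lie. DYNC1I1 differed by 0.42, and the light chain DYNLL1 was lowest at -0.39. The 13 kept tubulins, most of them building blocks of the microtubule track, had a median of 0.05 and ranged from -0.37 for TUBA1A to 0.36 for TUBB2B. The alpha tubulin genes are close to each other in sequence, as are the beta tubulin genes, so their single values are uncertain. STARD9, a kinesin-3 motor named outside the KIF pattern, differed by -0.10.

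**Figure D4:**
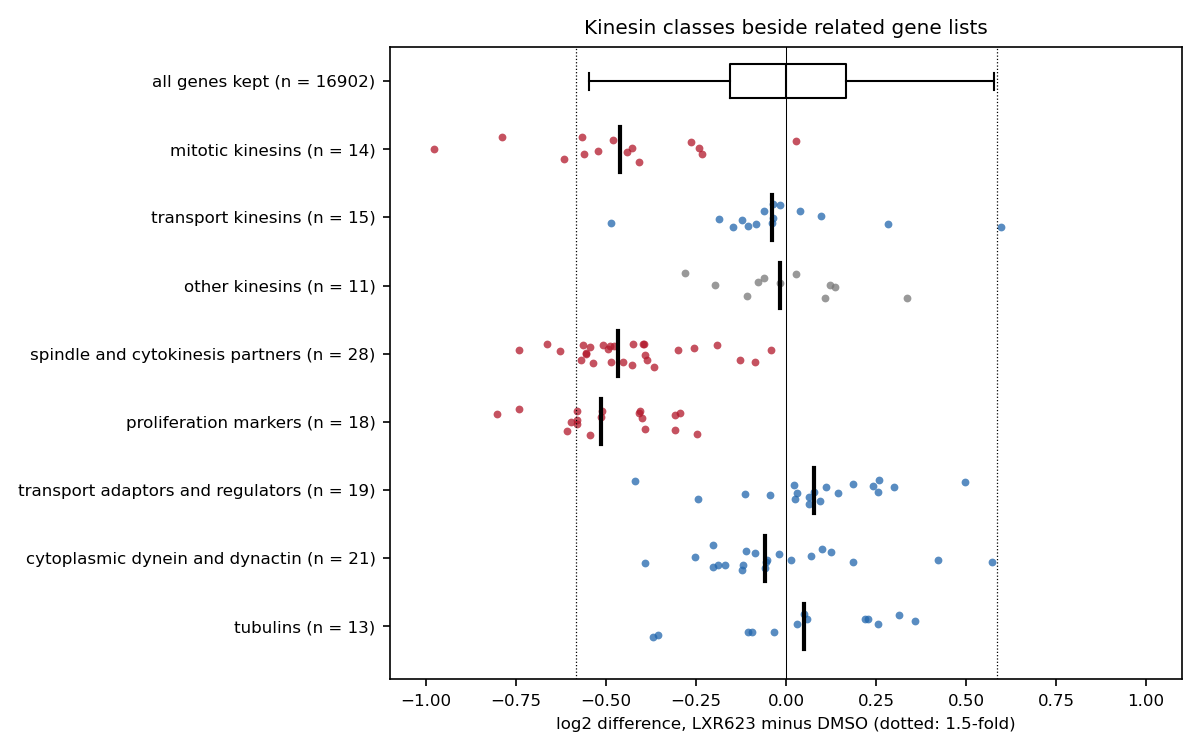
Log2 differences (LXR623 minus DMSO) of the kinesin classes and of related lists, 1 point per kept gene with a black bar at the median, below a box for all 16902 kept genes (box, quartiles; whiskers, central 95%); dotted lines mark 1.5-fold. The points of mitotic kinesins, spindle partners and proliferation markers centre between -0.46 and -0.51, those of the other rows between -0.06 and 0.08.

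Promoters of the mitotic kinesins shared short sequences that the class label did not use. Many genes of G2 and mitosis carry a CHR element, with the core TTTGAA, near the start site together with CCAAT boxes, to which the factor NF-Y binds, and both letter strings were sought on either strand (TTTGAA, which reads TTCAAA on the other strand, and CCAAT, which reads ATTGG there) in RefSeq windows of 250 bases before to 50 after each annotated start (GRCh38.p14). Windows were found for 34 of the 43 kinesins, 7 of them with more than 1 window, and the other 9 were KIF5A, KIF13B, KIFC2, KIFC3, KIF19, KIF21B, KIF26B, KIF27 and KIF28P. Of the 14 mitotic kinesins, 10 (71.4%) had TTTGAA, 11 (78.6%) CCAAT and 9 (64.3%) both in the same window. Of the 11 transport kinesins with a window, 1 (9.09%), 4 (36.4%) and 1 (9.09%) did, and of the 9 others 0, 3 (33.3%) and 0. Among all 35116 windows the shares were 15.2%, 34.6% and 5.90%, and among 12718 kept genes with a window 14%, 41.7% and 5.68%. Of the spindle and cytokinesis partners with a window, 16 of 23 (69.6%) had TTTGAA and 12 (52.2%) both. The proliferation markers had TTTGAA in 4 of 15 (26.7%) and both in 4, and CCAAT in 12 (80.0%). Both strings stood in 1 of 16 transport adaptors, 0 of 19 dynein and dynactin genes and 2 of 13 tubulins (15.4%).

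The windows of the 3 kinesins at least 1.5-fold lower and of KIF4A are shown to give the arrangement of these strings, beside KIF5B, the 1 transport kinesin with both, and KIF3A, which has neither. Capitals mark each TTTGAA or CCAAT on either strand, and the start site follows base 250. The windows span chr5:138178862-138179161 on the plus strand (KIF20A), chr10:92592880-92593179 on the plus strand (KIF11), chr15:69414099-69414398 on the plus strand (KIF23), chrX:70289854-70290153 on the plus strand (KIF4A), chr10:32056376-32056675 on the minus strand (KIF5B) and chr5:132737497-132737796 on the minus strand (KIF3A), each printed along its gene.
KIF20A: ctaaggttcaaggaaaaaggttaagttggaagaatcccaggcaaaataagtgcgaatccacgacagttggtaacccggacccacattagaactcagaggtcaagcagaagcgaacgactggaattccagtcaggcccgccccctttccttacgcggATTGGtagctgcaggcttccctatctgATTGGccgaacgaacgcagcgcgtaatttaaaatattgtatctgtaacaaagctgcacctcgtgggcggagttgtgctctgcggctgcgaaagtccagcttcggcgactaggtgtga
KIF11: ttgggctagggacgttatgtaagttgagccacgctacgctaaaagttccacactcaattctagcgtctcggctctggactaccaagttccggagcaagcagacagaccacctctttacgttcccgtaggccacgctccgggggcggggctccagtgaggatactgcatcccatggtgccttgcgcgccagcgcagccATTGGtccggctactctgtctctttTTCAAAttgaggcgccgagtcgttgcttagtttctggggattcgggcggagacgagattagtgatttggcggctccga
KIF23: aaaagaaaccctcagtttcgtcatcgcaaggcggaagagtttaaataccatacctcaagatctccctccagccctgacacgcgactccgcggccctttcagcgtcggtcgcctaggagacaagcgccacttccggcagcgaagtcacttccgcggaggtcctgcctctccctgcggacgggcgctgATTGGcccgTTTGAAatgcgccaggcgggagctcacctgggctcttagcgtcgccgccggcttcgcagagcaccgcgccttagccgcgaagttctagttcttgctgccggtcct
KIF4A: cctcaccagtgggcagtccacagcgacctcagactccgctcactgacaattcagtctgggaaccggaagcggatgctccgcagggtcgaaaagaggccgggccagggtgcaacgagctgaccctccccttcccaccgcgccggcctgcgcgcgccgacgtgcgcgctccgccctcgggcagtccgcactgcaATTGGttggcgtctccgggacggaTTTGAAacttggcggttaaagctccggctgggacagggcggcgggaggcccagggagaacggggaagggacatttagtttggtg
KIF5B: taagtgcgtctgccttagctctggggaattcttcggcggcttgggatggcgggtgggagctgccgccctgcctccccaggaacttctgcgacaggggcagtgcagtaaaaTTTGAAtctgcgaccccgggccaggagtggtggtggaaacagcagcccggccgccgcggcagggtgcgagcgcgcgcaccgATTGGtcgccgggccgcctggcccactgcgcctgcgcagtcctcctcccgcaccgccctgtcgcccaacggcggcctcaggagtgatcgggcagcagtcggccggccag
KIF3A: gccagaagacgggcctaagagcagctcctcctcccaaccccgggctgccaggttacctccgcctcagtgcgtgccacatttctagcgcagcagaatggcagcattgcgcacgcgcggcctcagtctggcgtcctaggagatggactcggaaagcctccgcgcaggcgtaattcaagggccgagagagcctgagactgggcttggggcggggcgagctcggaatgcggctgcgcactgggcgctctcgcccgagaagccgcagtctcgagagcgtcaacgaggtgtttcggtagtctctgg

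In the KIF23 window CCAAT stood in reverse from -64 to -60 and TTTGAA from -55 to -50, counted from the start site. In KIF11 they stood from -53 to -49 and from -28 to -23, and in KIF4A from -58 to -54 and from -34 to -29. In all 9 mitotic kinesins with both strings every CCAAT lay upstream of TTTGAA, whereas in KIF5B TTTGAA lay upstream, at -140 to -135, of CCAAT at -59 to -55. All 11 TTTGAA matches of mitotic kinesins fell between -55 and 36. KIF20A, the lowest of the family, had CCAAT at -94 to -90 and at -67 to -63 and no TTTGAA in this window. The mitotic kinesins with both strings had a median difference of -0.48 and those without both -0.41. A match is a string of letters, and binding was not measured.

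**Figure D5:**
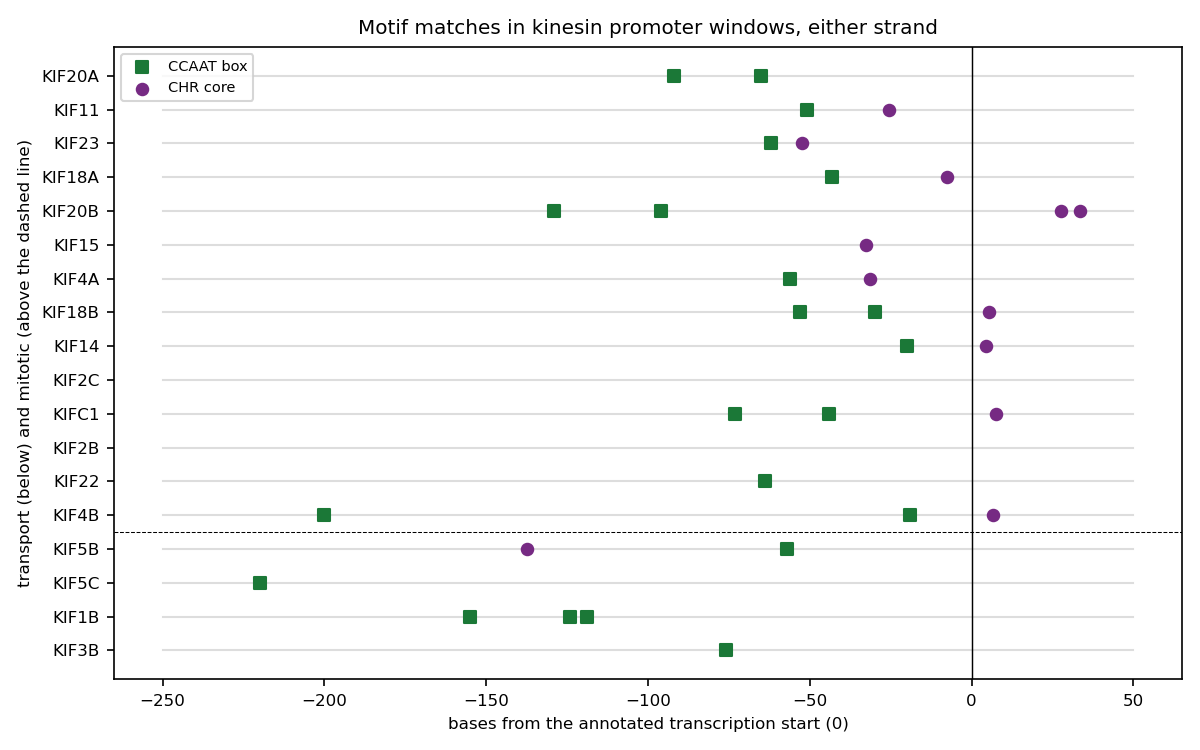
Positions of CCAAT (green squares) and TTTGAA, the core of the CHR element (purple circles), on either strand in promoter windows, in bases from the annotated start, for the 14 mitotic kinesins (above the dashed line, ordered by difference) and the transport kinesins with any match (below it). In the 9 mitotic kinesins with both, the squares lie left of the circles.

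The labelled cell line was set beside marker lists. Of 13 kept glioma and mesenchymal markers, 8 were lower and 5 higher, with a median of -0.15, and 2 (15.4%, against 2.01% of all kept genes) were at least 1.5-fold lower and below the central 95% of their level group. These were the glutamate transporter SLC1A3, at 7.76 in control and 6.87 with LXR623, a difference of -0.89, and the secreted glycoprotein CHI3L1, at 7.64 and 7.04, a difference of -0.60. The matrix protein gene FN1 followed at -0.42, and the intermediate filament gene VIM, at 12.09 and 12.46, was highest at 0.36. Some glioma markers were thus lower alongside the mitotic kinesins, and their part in the kinesin values was not tested. Bright on the control array, besides VIM, were ANXA1 at 11.80, FN1 at 11.22, CD44 at 10.96, TNC at 10.86, SPARC at 9.85 and S100A6 at 8.21. NES and FABP7 lay at 5.67 and 4.52 on that array. The astrocyte and progenitor genes GFAP, at 4.76 and 4.68, OLIG2, at 4.45 and 4.81, and SOX2, at 2.56 and 2.69, were dim. The 15 colon epithelial markers lay between 2.86 and 6.0 on the control array and between 3.08 and 5.76 on the LXR623 array. Over the 13 kept their median difference was 0.07 and none reached 1.5-fold. The largest differences were -0.57 for EPCAM, 0.41 for KRT19, 0.35 for LGALS4 and 0.33 for CLDN3. Background was not measured here, so no marker is called absent. No array of a known colon line was compared, so the conflict between the labels was not tested.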

How the data were processed

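Total RNA of U87 cells was labelled with biotin and hybridised to Affymetrix arrays, 1 per group. The authors deposited log2 expression values, 1 for each probe set, which they made with RMA, affy 1.36.1 and R 2.15.1 according to the submitters' processing notes. The genome build is not given in the sources used here. RMA forces similar intensity distributions, which would hide a change common to most genes, and it compresses differences of dim probe sets. Of 23786 probe sets, 22458 had 1 gene symbol. The array medians were 4.88 and 4.92.

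The difference of log2 values was computed per gene, with no test, since each group had 1 array. Genes were kept at or above the 25th percentile of mean level. Kinesin classes, related lists, motifs and the rule for named genes were chosen with earlier results of these data known. The rule named every member, up to 4 largest differences per list and a fixed set. The remaining glioma and mesenchymal markers were added after their values were seen. Lists are described by counts and medians beside those of all kept genes. Of the listed genes 2 adaptors and 1 tubulin had no named probe set. Alternatives were median centring, removal of a lowess curve (span 0.3), no filter or the 50th percentile, the mean, leaving out the most extreme member, another class assignment and a 2-fold threshold. The lowess step was tested on simulated data. Promoter sequences are from RefSeq (GRCh38.p14), and protein features were not analysed here. Computations used Python 3.11.15, numpy 2.4.6, pandas 2.3.3, statsmodels 0.14.6 and matplotlib 3.10.9.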

Additional observations from a re-analysis of the deposited data

How the results depend on the processing

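Neither the mitotic median, nor the transport median, nor their difference changed sign or moved by more than the scatter of single genes at like level divided by the root of the member count, under any alternative run. The mitotic median ranged from -0.52 to -0.43 and the difference of medians from -0.48 to -0.39. Every mitotic and transport kinesin passed the main filter, so leaving that filter out could not move these values. The counts past 1.5-fold did move. Median centring gave 5 kinesins lower and 0 higher. A 2-fold threshold left 0 lower and 0 higher kinesins, and of all genes 28 lower and 57 higher. The filter at the 50th percentile and removal of the lowess curve each left 0 higher kinesins, and that filter left 218 lower and 218 higher of all genes, as fewer genes entered. KIF1A was the gene lost upward. Centring shifted every gene by the same -0.04, so it could not move the difference of medians, and the lowess curve shifted single kinesins by -0.06 to 0.03. Signs near 0 turned for 3 kinesins on centring and for 2 with the lowess curve. No paired analysis was possible because there was 1 array on each side. Dim members such as KIF1A, KIF17 and KIF2B limit what can be read, and their signal was not set against background.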

Other observations

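Outside the family, promoter strings and differences were set side by side as a description chosen after the data were seen. The 712 kept genes with TTTGAA and CCAAT in 1 window, leaving out the 43 kinesins, had a median difference of -0.06. Of them, 57.7% were lower and 4.21% were at least 1.5-fold lower. Spindle partners and proliferation markers with both strings, described above as lower, stayed in these counts. Of the 6553 genes with neither, the median was 0, 47.9% were lower and 1.60% were at least 1.5-fold lower. The 843 genes with TTTGAA alone had 2.97% at least 1.5-fold lower, and the 4367 with CCAAT alone 1.88%. A further 211 genes, with the strings in different windows, were left out.

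KIF3A and KIF13A, which are not copies of each other, had differences that were equal to the last printed digit, -0.0354711. Among kept genes with a difference other than 0, 16.4% shared their value with another gene to 9 decimals.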
